A study of Gallus gallus with 24 samples.

Results

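The probe sets described here were higher in the right than in the left ventricle of the chick embryo at embryonic day 6, 8 and 10 (E6, E8 and E10). They were chosen from these values by a fixed rule applied to the log2 mean of the 2 arrays of each pool. The highest pool mean had to reach 6, right minus left had to be at least 0.75 in the normal pools of each of the 3 ages, and the banded and normal E5 pools had to lie within 0.7 of each other. The rule took 149 of 38535 probe sets, all from the 17594 whose highest pool mean reached 6, and the mirrored rule for the left ventricle took 65. A gene symbol was available for 114 members, which stand for 98 genes, and 35 members had none. Of the 98 genes, 14 were measured by more than 1 member, so members are not independent of each other.

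The study measured chick ventricles on 24 oligonucleotide arrays. The surgically treated pools were the right and the left ventricle at E8 after left atrial ligation, a partial ligation of the left atrial appendage done in the egg at E4, and both ventricles together at E5 after conotruncal banding at E4, a constriction of the outflow tract. The normal pools were the right and the left ventricle at E6, E8 and E10, and both ventricles together at E4, E5 and E6. Each condition was a single RNA pool of 6 to 12 specimens hybridised to 2 arrays, so n = 1 throughout and the only measured error is that between duplicate arrays. No strain and no sham-operated group were given in the labels, and whether a right and a left pool came from the same hearts was not stated. A difference between 2 pools therefore has no test, and "higher" or "lower by the 2-fold rule" below means that pool means differed by at least 1 on the log2 scale and that the duplicate arrays did not overlap.

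The left ventricle of birds and mammals forms mainly from the first heart field, and the right ventricle and outflow tract from cells of the second heart field that are added later. In the chick, ligation of the left atrium shifts inflow away from the left side and leaves a small left ventricle with a large right one, and it has long been used as a model of left heart hypoplasia. Bone morphogenetic proteins (BMPs), Wnt proteins and fibroblast growth factors (FGFs) pattern the heart fields and the outflow region.

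The normal right minus left differences are the values that chose the members and are given only as a description. Their median was 1.25 at E6, 1.53 at E8 and 1.57 at E10. By the 2-fold rule 98 members were higher in the right ventricle at E6, against 2.57% of the 17594 probe sets at the floor, 122 at E8 against 2.83%, and 116 at E10 against 3.48%. The rule allows none that is lower, and the share of probe sets at the floor that was lower on the right was 1.42% at E6, 1.05% at E8 and 2.48% at E10. The difference was widest at E6 in 41 members, at E8 in 54 and at E10 in 54. It reached 1 at all 3 ages in 68 members and 2 at all 3 ages in 4. The highest values of the smallest difference belonged to ZPLD1, a zona pellucida domain protein, with right minus left of 3.97 at E6, 2.55 at E8 and 3.24 at E10, and to ADCY8, an adenylyl cyclase, with 3.03, 2.54 and 2.92. At the edge of the rule, NFIB had a smallest difference of 0.75 and was a member, and ZMIZ1 had 0.749 and was not. The largest banding difference inside the limit was 0.681, at an unnamed probe set, and the nearest outside it was 0.725, at CPNE4. The lowest highest pool mean inside was 6.02, at an unnamed probe set, and NBAS lay outside at 5.997. In all, 8 probe sets were left out by the banding limit alone.

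**Figure D1:**
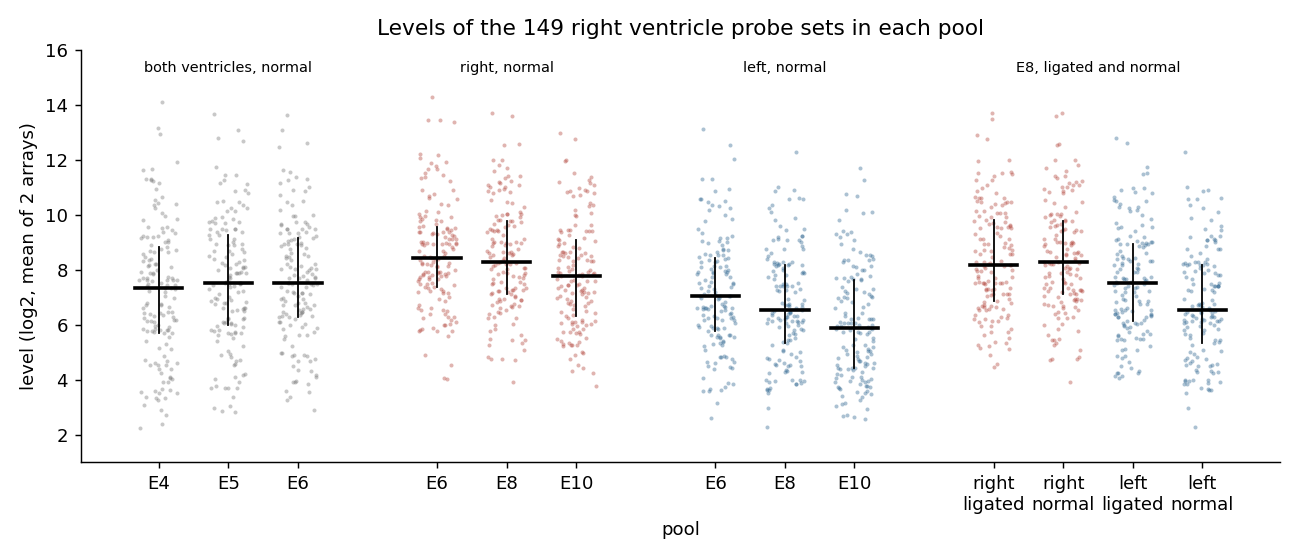
Each point is 1 of the 149 right ventricle probe sets, on a log2 scale as the mean of 2 arrays, and the horizontal axis gives the pool. Thick bars are medians and thin lines run between the quartiles. The left ventricle lies lower at each age by the choice of members, both ventricles decline in median to E10 (7.76 in the right and 5.87 in the left), and the ligated left pool (7.51) lies between the ligated right pool (8.17) and the normal left pool of E8 (6.55).

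The ligated pools entered the rule only through the level minimum, which 2 members passed through a ligated pool alone. In the ligated pair the members were mostly higher on the right. The median right minus left difference was 0.68, against 0.00 over the probe sets at the floor. It was above 0 in 139 members and at or below 0 in 10. It reached 0.75 in 69 members, which is 46.3% of them, against 1.71% of the probe sets at the floor. By the 2-fold rule 49 members were higher on the right, against 0.875% of the probe sets at the floor, and 0 were lower, against 1.04%. In bulk tissue, fewer cells of a type and less RNA per cell cannot be told apart, in this result or in those that follow.

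The ligated difference was smaller than the normal E8 difference in 139 members. The normal E8 pair had helped to choose them. The comparison was therefore repeated with 223 probe sets chosen on right minus left at E6 and E10 only. For these the normal and ligated E8 pools entered only through the level minimum. How many of the 223 passed it through an E8 pool alone was not counted. Their median right minus left was 0.45 in the ligated pair and 1.11 in the normal pair. By the 2-fold rule 51 were higher on the right in the ligated pair, 49 of them members. In the normal pair 122 were, all of them members. The 85 probe sets chosen in the same way for the left ventricle had medians of -1.09 in the ligated pair and -1.22 in the normal pair. TBX5, a transcription factor of the left ventricle and no member, measured 6.69 in the right and 9.06 in the left ligated pool, against 5.58 in the right and 8.05 in the left normal E8 pool. Its left excess was therefore of like size in both pairs. Whether the difference changes with ligation was tested across all probe sets as a term for side by ligation in limma. It called 0 members after Benjamini-Hochberg adjustment, against 0.00984% of all probe sets tested called up and 0% down, while 0 members were positive and 22 negative at an unadjusted p under 0.05, against 0.649% and 0.733% of all probe sets tested. The rule fixed the normal part of that term, which favours negative values, so nothing is read from these counts.

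**Figure D2:**
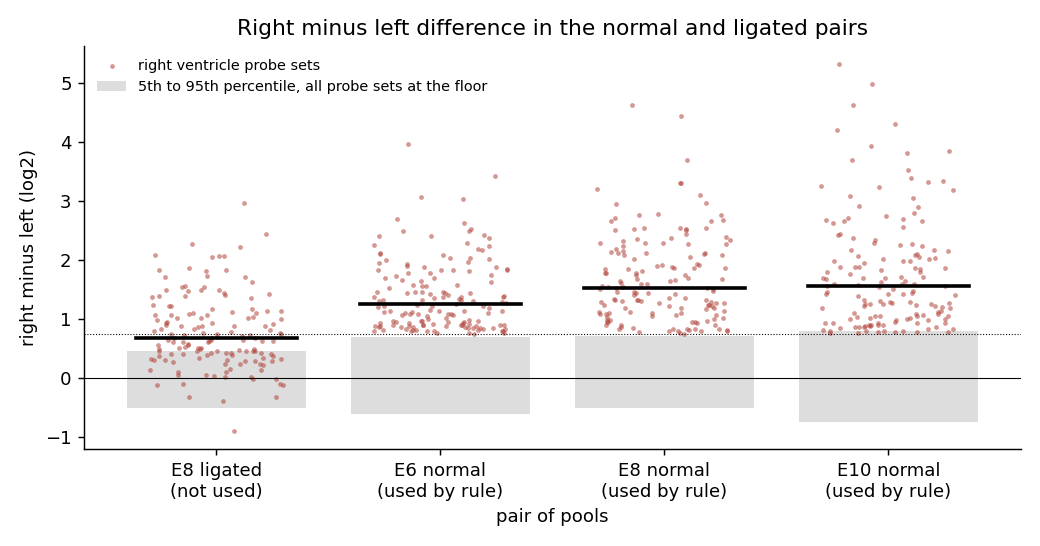
Each red point is a right ventricle probe set, the vertical axis is right minus left on the log2 scale and the horizontal axis gives the pair of pools. Black bars are medians, grey bands run from the 5th to the 95th percentile of all probe sets at the floor, and the dotted line is the rule's minimum of 0.75. In the ligated pair the median is 0.68 and 10 points lie at or below 0.

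The change lay mostly in the left ventricle. Ligated minus normal at E8 had a median of 0.76 in the left ventricle, where 55 members were higher after ligation by the 2-fold rule and 0 were lower, against 2.38% and 1.71% of the probe sets at the floor. In the right ventricle the median was -0.07, with 10 members higher and 6 lower, against 1.74% and 2.14%. In all, 48 members were higher in the ligated left ventricle alone, 7 in both ventricles and 3 in the right alone, and 85 passed the rule in neither. These joint counts were not computed over the probe sets at the floor, and nothing is read from the overlap. The normal E8 pools also entered the rule. The 223 probe sets, which include all 149 members, used the E8 pools only for the level minimum. Of these, 65 were higher and 0 lower in the ligated left ventricle, with a median of 0.58, and 55 of the 65 were members. In the ligated right ventricle 20 were higher and 7 lower, with a median of -0.04, and 10 of the 20 and 6 of the 7 were members. In limma, ligation over both ventricles called 0 members, against 0.00984% of all probe sets tested called up and 0% down, with 23 up and 3 down at an unadjusted p under 0.05, against 7.14% and 6.59% of all probe sets tested.

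As a description, the ligated left level of 130 members was between the normal left and the normal right E8 level, and that of 8 was at or above the normal right. In 102 members it was above the normal left level of E6. The rule keeps those normal levels apart and the normal left ones low, which favours both counts.

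**Figure D3:**
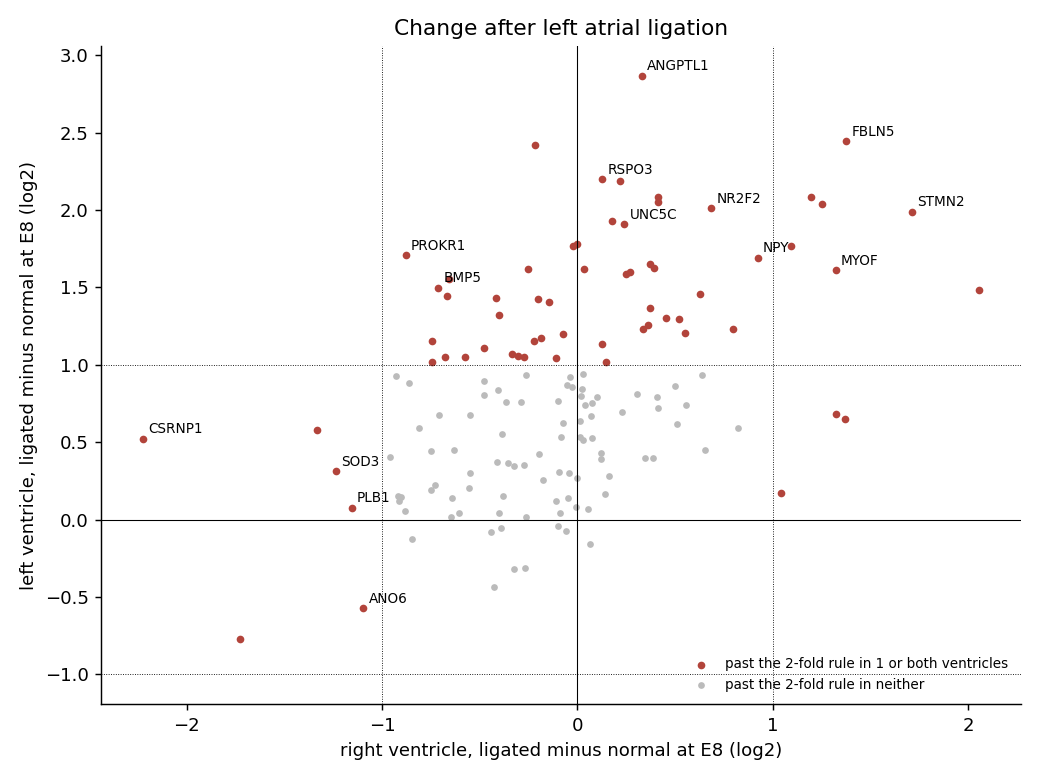
Each point is 1 of the 149 probe sets, with ligated minus normal at E8 in the right ventricle on the horizontal axis and in the left on the vertical axis, both on the log2 scale. Red points passed the 2-fold rule in 1 or both ventricles, and dotted lines mark a 2-fold difference. The cloud lies above 0 on the vertical axis (median 0.76) and around 0 on the horizontal axis (median -0.07).

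Levels fell with age in more members than rose. On the 5 stage means of the normal pools, with right and left averaged, limma called 14 members as rising and 43 as falling at an adjusted p under 0.05. The same fit called 5.50% of all probe sets tested as rising and 6.33% as falling. Its residual error is the departure of stage means from a straight line, not the spread between pools of a stage. Without E10 the fit called 0 of all 20335 probe sets in either direction, so adjusted calls cannot show how the members behaved. At an unadjusted p under 0.05 in limma, 48 members then rose and 37 fell, against 26 and 63 with all stages. The shares of all probe sets tested were 14.2% and 18.1% with all stages and were not computed without E10. The median slope of the members was 0.03 per day without E10, against -0.08 with all stages. The excess of falling over rising members in this fit thus depended on E10. Over all probe sets tested the median slope was -0.01 with and without E10. Without E8 the fit called 5 members up and 8 down, of 78 and 143 probe sets in all. Without E6 it called 6 up and 19 down, of 288 and 341.

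The decline lay after E6. In the pools of both ventricles, 25 members were higher and 6 lower at E5 than at E4, against 3.10% and 1.23% of the probe sets at the floor, and 3 were higher and 1 lower at E6 than at E5, against 0.506% and 0.227%. Over both days together 26 were higher and 7 lower (3.46% and 1.13%). In the right ventricle 17 members were higher and 22 lower at E8 than at E6 (2.64% and 2.16%), and 6 were higher and 44 lower at E10 than at E8 (0.767% and 2.74%). In the left ventricle 9 were higher and 32 lower at E8 than at E6 (3.23% and 2.32%), and 9 were higher and 51 lower at E10 than at E8 (1.05% and 2.39%). At E10 relative to E6, 18 members were higher and 63 lower on the right (5.21% and 6.60%), and 14 were higher and 82 lower on the left (5.47% and 5.19%), with median differences of -0.82 and -1.15. Over that interval 54 members were lower in both ventricles, 28 in the left alone and 9 in the right alone, and 13 were higher in both. For these joint counts no share over the probe sets at the floor was computed, so nothing is read from them. Of the 82 members lower in the left ventricle at E10 than at E6, 35 were higher after ligation on that side at E8, beside 55 of all 149. Of the 55 members higher in the ligated left ventricle, 22 had a falling stage trend, 0 a rising one and 33 neither. Among all 149 members these were 43, 14 and 92. Neither overlap was computed over the probe sets at the floor, and no link is read from them.

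**Figure D4:**
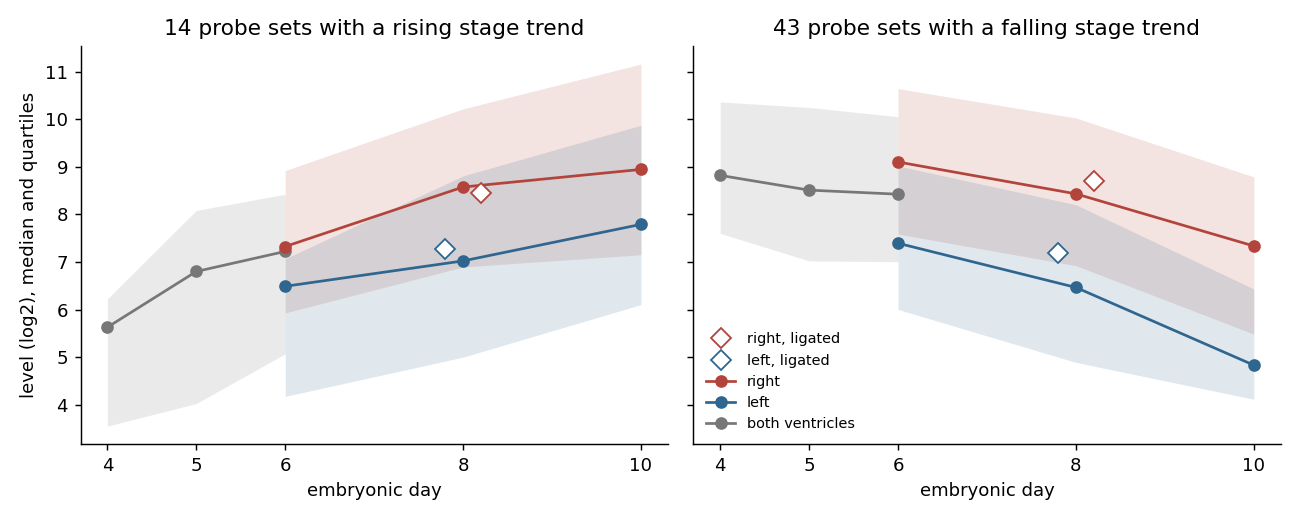
The 14 members with a rising and the 43 with a falling stage trend, with embryonic day on the horizontal axis and log2 level on the vertical axis. Lines join the medians of the normal pools and bands run between the quartiles, and open diamonds, drawn beside day 8, are the medians of the ligated E8 pools. Among the falling members the ligated left diamond lies above the normal left median of E8, and the right diamond lies close to the normal right median.

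The named members were sorted by hand into 9 role groups after their values had been seen, and the genes described below were chosen from those groups. The counts of each group are to be read beside the shares given above. At the floor, 2.38% were higher and 1.71% lower in the ligated left ventricle, and 1.74% and 2.14% in the ligated right. A ligated right minus left of 0.75 or more was found in 1.71%. The stage trend called 5.50% of all probe sets tested as rising and 6.33% as falling. The signalling ligands and their modulators had 15 probe sets of 14 genes. After ligation 10 of them were higher on the left and 0 on the right by the 2-fold rule, with a median left change of 1.26. Their ligated right minus left difference had a median of 1.25 and reached 0.75 in 10. By the stage trend 7 fell and 0 rose.

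ANGPTL1, a secreted angiopoietin-like protein, had the largest left change of all members. It measured 9.69 in the ligated right ventricle against 9.36 in the normal one at E8, and 8.91 in the ligated left ventricle against 6.05 in the normal one, a left change of 2.87. The normal right ventricle had 9.36 at E6 and 7.85 at E10, and the normal left 7.90 and 5.83. The ligated left level was thus above the left level of every normal age, and closer to the right than to the left normal level of E8.

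RSPO3, a secreted R-spondin that strengthens Wnt signalling, was at 11.30, 11.10 and 11.14 in both ventricles together at E4, E5 and E6. The right ventricle then had 11.67, 10.82 and 8.97 at E6, E8 and E10, and the left 10.87, 8.28 and 6.22. Its stage trend fell by 0.63 per day (SE 0.0905, adjusted p = 0.0215, limma). After ligation the left pool stood at 10.48, near the E6 left level and 2.20 above the normal left pool of E8, and the right pool stood at 10.95, a change of 0.13.

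BMP5, a BMP ligand, was measured by a pair of probe sets. The first (Gga.620.1.S1_at) had 11.33, 11.33 and 10.85 in the right ventricle at E6, E8 and E10, and 10.18, 8.22 and 7.0 in the left. The right level was nearly level with age and the left one was lower at each step, so that right minus left was 1.14, 3.11 and 3.85. After ligation it measured 10.85 on the right and 9.12 on the left, a right minus left of 1.73. The second (Gga.17934.1.S1_at) had a right minus left of 1.05, 4.44 and 3.93, and of 2.23 after ligation, and its left level was 1.5 higher after ligation. Its duplicate arrays differed most in the normal left E8 pool, with an SD of 0.69, so the 4.44 and the 1.5 are uncertain in size. The left change of the first did not reach 2-fold. Both fell with stage (-0.39 per day, adjusted p = 0.00988, and -0.40 per day, adjusted p = 0.026, limma). BMP2, another BMP ligand, had 9.77, 9.97 and 8.61 in the right ventricle at E6, E8 and E10, and 8.91, 7.86 and 6.05 in the left. Its left level was 9.19 after ligation, a change of 1.32.

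CHRDL1, an extracellular BMP antagonist, measured 6.38 in the ligated left ventricle against 4.61 in the normal one at E8, and 6.68 and 6.71 in the right. WNT9A, a Wnt ligand, measured 5.74 in the ligated left ventricle against 4.51 in the normal one, and 6.63 and 6.29 in the right. Both BMP ligands, the antagonist and both Wnt-related genes of the group, all members, were therefore higher in the ligated left ventricle at 1 or more probe sets. BMP ligands outside the members went both ways. BMP4 changed by -1.63 on the left and -1.37 on the right at its probe set at the floor, and BMP10 by 1.15 and 0.88.

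NPY, the neurotransmitter neuropeptide Y, kept one of the 2 largest right minus left differences after ligation, 2.44. It measured 10.47 in the ligated right ventricle against 9.54 in the normal one at E8, and 8.03 in the ligated left ventricle against 6.34 in the normal one. NELL2, a secreted protein with EGF-like repeats first studied in neurons, and CRHBP, which binds corticotropin-releasing hormone, were 1.26 and 1.13 higher in the ligated left ventricle. DIO2, the deiodinase that activates thyroid hormone, did not share this response: it measured 8.93 in the ligated left ventricle against 9.0 in the normal one, and 10.80 and 10.86 in the right. INHBA, a subunit of activins and inhibins, likewise measured 7.73 in the ligated left ventricle against 7.89 in the normal one. CPE and PCSK2, enzymes of peptide hormone processing, had left changes of 0.74 and 0.19.

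**Figure D5:**
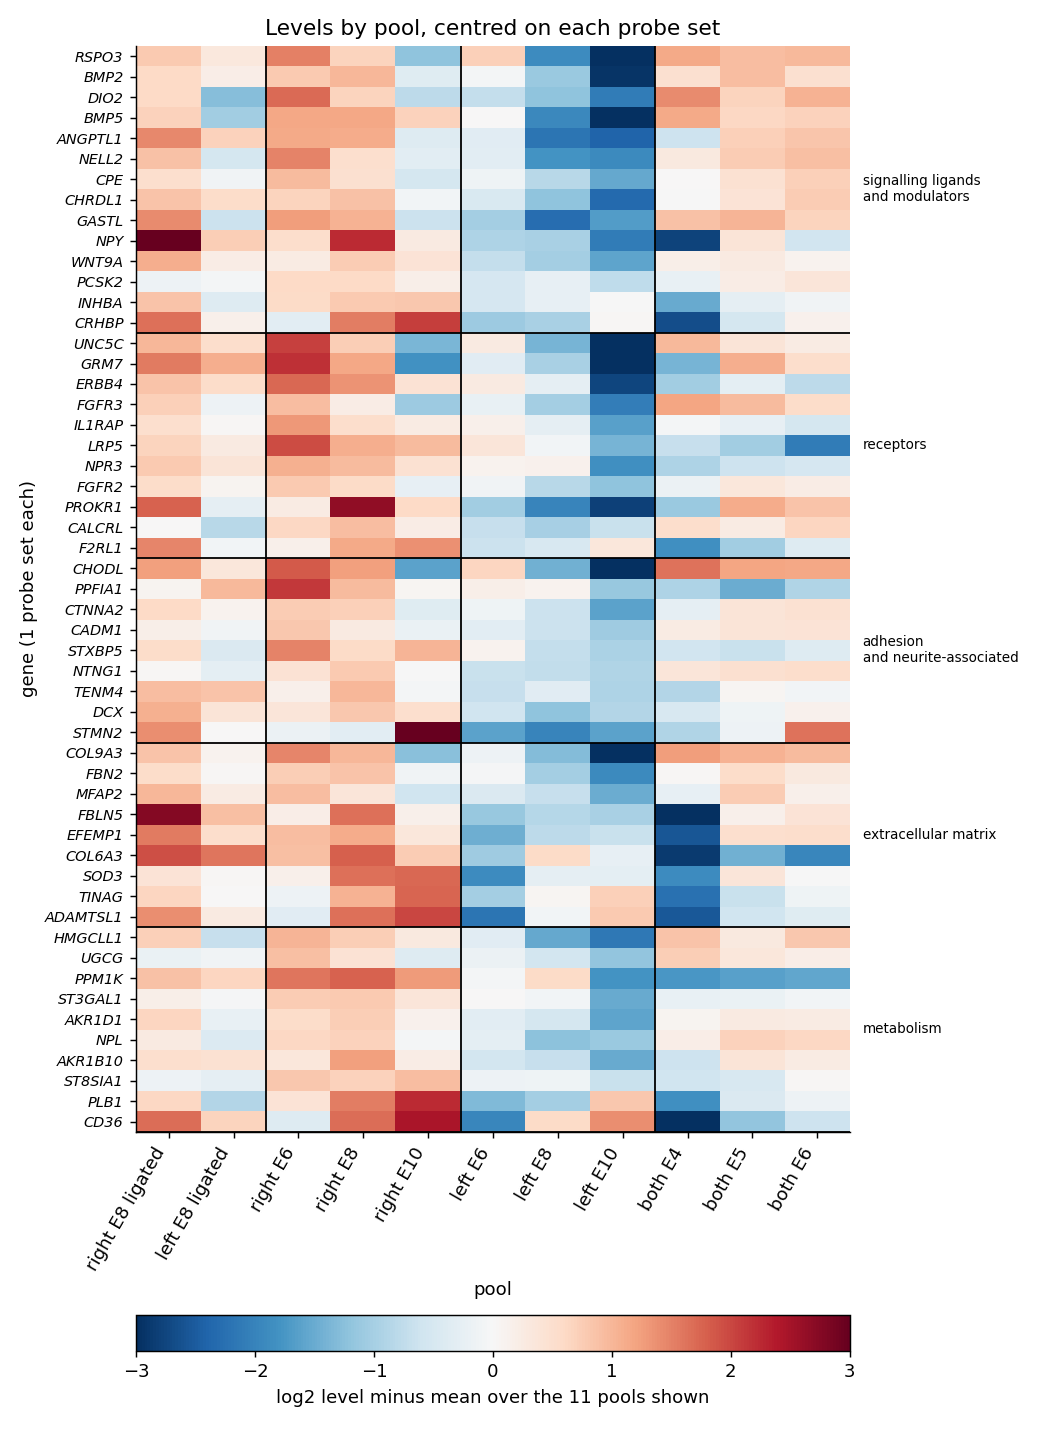
Rows are 53 genes of 5 role groups, 1 probe set each, and columns are pools. Colours give the log2 level minus the probe set's mean over the 11 pools shown, red above and blue below it. Most rows are darkest blue in the left ventricle at E10, and the E8 ligated left column is paler than the normal left E8 column for most ligands.

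The receptors comprised 13 probe sets of 11 genes, of which 4 were higher in the ligated left ventricle and 0 in the ligated right. By stage 4 fell and 1 rose. UNC5C, a netrin receptor, had 9.90, 8.59 and 6.49 in the right ventricle at E6, E8 and E10, and 8.11, 6.46 and 4.43 in the left, with 8.83 in the right and 8.37 in the left ligated pool. Its left change of 1.91 brought the ligated left pool to within 0.46 of the ligated right one. GRM7, a metabotropic glutamate receptor, had 8.67 in the right and 8.18 in the left ligated pool, against 8.26 in the right and 6.13 in the left normal pool of E8. PROKR1, a prokineticin receptor, kept a right minus left of 2.05 after ligation, although its left level was 1.71 higher than normal.

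FGF receptors were represented by FGFR3 and FGFR2. FGFR3 fell with stage at both of its members (-0.46 and -0.40 per day, adjusted p = 0.00875 and 0.00982, limma), and its left changes after ligation were 0.86 and 1.60, the second past the 2-fold rule. FGFR2 had left changes of 0.64 and 0.92, which did not reach 2-fold. ERBB4, the neuregulin receptor through which trabeculation is driven in the mouse, measured 10.59 in the ligated right ventricle against 11.07 in the normal one at E8, and 10.27 in the ligated left ventricle against 9.47 in the normal one. NPR3, the clearance receptor of natriuretic peptides, had a left change of 0.25. F2RL1, a protease-activated receptor, was the 1 receptor that rose with stage (0.43 per day, adjusted p = 0.0158, limma).

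Extracellular matrix genes had 11 probe sets of 9 genes. In the pools of both ventricles 8 of 11 were higher at E5 than at E4, against 3.10% of the probe sets at the floor. The median difference of the 11 was 1.58, and 5 of 13 metabolic and 4 of 15 ligand probe sets were higher too. On the left 7 were higher after ligation, and on the right 2 were higher and 1 lower. FBLN5, a fibulin of elastic fibres, had 3.32, 7.28 and 7.70 at E4, E5 and E6 in both ventricles at the first of 2 probe sets (Gga.10096.1.S1_at). It measured 10.38 in the ligated right ventricle against 9.0 in the normal one at E8, and 8.66 in the ligated left ventricle against 6.22 in the normal one, differences of 1.38 and 2.44. The second probe set gave 1.09 and 1.77, so FBLN5 was higher in both ligated ventricles at both. Its duplicate arrays differed most in the E4 pool, with SDs of 0.46 and 0.68 at the first and second probe set. EFEMP1, a related fibulin, had 11.53 in the ligated right ventricle against 11.08 in the normal one and 10.51 in the ligated left ventricle against 9.20 in the normal one.

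FBN2, a fibrillin, and MFAP2, a glycoprotein of the microfibrils that fibrillins form, had left changes of 1.05 and 0.94. COL9A3, a collagen IX chain typical of cartilage, fell with stage at both probe sets (-0.73 and -0.62 per day, adjusted p = 0.0243 and 0.024, limma). Its level at Gga.3459.1.S1_at was 10.61, 10.08 and 7.91 in the right ventricle at E6, E8 and E10, and 9.02, 7.80 and 4.21 in the left. After ligation its left changes were 1.17 and 1.40. COL6A3, a collagen VI chain, was 1.02 higher in the ligated left ventricle. TINAG, a basement membrane protein, and ADAMTSL1, a secreted matrix protein, rose with stage (0.52 and 0.60 per day, adjusted p = 0.0235 and 0.026, limma) and had left changes of -0.05 and 0.36. SOD3, the extracellular superoxide dismutase, measured 9.77 in the ligated right ventricle against 11.01 in the normal one at E8, and 9.40 and 9.09 in the left. It was thus lower by the 2-fold rule in the ligated right ventricle, where FBLN5 was higher.

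Adhesion and neurite-associated genes had 12 probe sets of 9 genes, with 5 higher in the ligated left and 1 in the ligated right ventricle. CHODL, a transmembrane lectin, was among the brightest members and had the steepest fall of any named gene, at Gga.9667.1.S1_s_at (-0.88 per day, SE 0.16, adjusted p = 0.0334, limma). There it measured 14.29, 13.69 and 10.85 in the right ventricle at E6, E8 and E10, and 13.10, 11.01 and 6.21 in the left. The ligated left pool had 12.79, which is 1.78 above the normal left pool of E8, and the ligated right pool had 13.69, the same as the normal one. The other CHODL probe set had a left change of 1.93. DCX, the microtubule protein doublecortin of migrating neurons, and TENM4, a teneurin, had left changes of 1.59 and 1.20.

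STMN2, a stathmin of growing axons, measured 7.96 on the right and 2.63 on the left at E10. The left value lies near the lower end of the scale, so the size of that difference, 5.32, is uncertain. It was dim in the younger right pools, at 4.07 at E6 and 3.91 at E8. After ligation it measured 5.62 on the right and 4.25 on the left, 1.71 and 1.99 above normal. As at E10, STMN2 lay near the lower end of the scale in the normal left pool of E8, so the size of the 1.99 is uncertain too. Its duplicate arrays differed most in the E6 pool of both ventricles, with an SD of 0.80. The neural crest marker SOX10 did not exceed 2.66 in any single-ventricle pool. That value was of the normal right pool of E8, where the left had 1.88. TUBB3, from the same list of neural crest and nerve markers, lay between 7.60 and 9.03 in those pools. TUBB3 was lower on the right at E6, at E8 and after ligation, and higher at E10. The part of nerve cells was not tested. The CADM1 (a cell adhesion molecule of the immunoglobulin family) left changes were 0.80, 0.53 and 0.53 at 3 probe sets, short of 2-fold.

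Intracellular signalling genes had 16 probe sets of 12 genes, of which 7 were higher in the ligated left ventricle, 0 were higher or lower by the 2-fold rule in the right, and 5 fell with stage. FGF13, an FGF homologue that is not secreted and binds sodium channels, had 10.46 in the ligated right ventricle against 10.88 in the normal one at its brightest probe set (Gga.2685.1.S2_at), and 10.16 in the ligated left ventricle against 8.73 in the normal one. All 3 of its probe sets were higher in the ligated left ventricle, by 1.02, 1.43 and 1.42. ADCY8 measured 8.72 in the ligated right ventricle against 8.35 in the normal one at GgaAffx.10436.4.S1_s_at, and 7.18 in the ligated left ventricle against 5.82 in the normal one, and fell with stage (-0.40 per day, adjusted p = 0.0132, limma). PDE1C, a cyclic nucleotide phosphodiesterase, and RASD2, a small GTPase, each had a left change of 1.62. PLCD1, a phospholipase C, had left changes of 0.15 and 0.07 and kept a right minus left of 0.92 and 1.10 in the ligated pair.

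The cytoskeleton, muscle and channel group had 9 probe sets of 8 genes, with 3 higher in the ligated left ventricle. CSRP2, a LIM protein of smooth muscle, measured 12.91 in the ligated right ventricle against 12.53 in the normal one, and 11.74 in the ligated left ventricle against 10.09 in the normal one. MYOF, the membrane repair protein myoferlin, was higher by 1.32 in the ligated right and by 1.61 in the ligated left ventricle. ANO6, a calcium-activated scramblase, was lower in the ligated right ventricle by the 2-fold rule, with a change of -1.10, and had -0.57 in the left. ANO6 and SCN3B, an auxiliary sodium channel subunit, rose with stage (0.79 and 0.59 per day, adjusted p = 0.00855 and 0.00875, limma).

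Metabolic genes had 13 probe sets of 10 genes, and 1 of them, the aldo-keto reductase AKR1B10, was higher in the ligated left ventricle, by 1.15. CD36, the fatty acid transporter of heart muscle, had the steepest rises of all members. At Gga.13583.1.S1_at it had 5.99, 9.13 and 9.67 at E4, E5 and E6 in both ventricles, then 9.91, 11.98 and 12.75 in the right ventricle at E6, E8 and E10 and 8.34, 10.88 and 11.70 in the left. The slopes at its 2 probe sets were 0.94 (SE 0.162, adjusted p = 0.0306) and 1.16 per day (SE 0.205, adjusted p = 0.0318, limma). Ligation left it at 11.97 on the right and 10.96 on the left, with right minus left at 1.01. PLB1, a phospholipase, also rose (0.54 and 0.48 per day, adjusted p = 0.0342 and 0.0212, limma) and had right changes of -1.16 and -0.90 after ligation. HMGCLL1, a lyase of leucine breakdown and ketone formation, fell at both probe sets (-0.29 and -0.33 per day, adjusted p = 0.0218 and 0.0157, limma).

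Transcription and chromatin genes had 17 probe sets of 17 genes, and right minus left in the ligated pair was at 0.75 or more in 3. In the left ventricle 4 were higher after ligation. NR2F2, a nuclear receptor of atrial and venous identity in the mouse and the only member on a list of atrial markers, measured 7.92, 7.22 and 6.57 in the right ventricle at E6, E8 and E10, and 4.86, 5.66 and 4.69 in the left. The ligated pools had 7.91 on the right and 7.67 on the left, a left change of 2.01, so that both ligated ventricles stood near the normal right level. Its duplicate arrays differed most in the right E10 pool, with an SD of 0.92. The rest of the atrial list did not share its right excess. Over the 5 probe sets of that list at the floor, NR2F2 included, the median right minus left was -0.07 at E6 and -0.29 at E8. It was -0.18 at E10 and -0.14 in the ligated pair, and GJA5 and HEY1 were lower on the right in each pair. DPF3, a subunit of the BAF chromatin complex, had 7.55 in the right and 7.53 in the left ligated pool, against 8.22 in the right and 6.09 in the left normal E8 pool. The other DPF3 probe set at the floor did not share the E8 excess. Its right minus left was 0.90 at E6, -0.92 at E8, 0.68 at E10 and -0.35 in the ligated pair. KMT2E and MAB21L2 were 1.46 and 1.07 higher in the ligated left ventricle. The other KMT2E probe sets at the floor had a right minus left of 1.08 and 0.25 at E6, 0.29 and 0.34 at E8, and 1.18 and -0.13 at E10.

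CSRNP1, a nuclear protein of axin-linked transcription, had the largest right decrease after ligation, -2.22. It measured 4.46 in the ligated right ventricle against 6.68 in the normal one at E8, and 4.85 in the ligated left ventricle against 4.33 in the normal one. With 1 array of each pool the left change was 1.42 or -0.38 and the ligated right minus left -1.16 or 0.37, so neither has a settled sign. The other CSRNP1 probe set at the floor had a right minus left of 0.06 at E6, 0.29 at E8 and -0.18 at E10. The aryl hydrocarbon receptor AHR1A rose with stage (0.48 per day, adjusted p = 0.00855, limma), and VRTN, which in mammals influences vertebral number, fell (-0.63 per day, adjusted p = 0.00875, limma).

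The rule did not use the E6 pool of both ventricles to set right against left. At E6 that pool lay between the right and left pools in 92 members, above the right in 14 and below the left in 43. No share over the probe sets at the floor was computed for these counts. Of the 43 below the left, 13 were transcription and chromatin genes, against 4 of the other 106. That group was sorted by hand after the values had been seen, so this is a description. In 14 members, 9.40%, it was at least 1 below the left pool, against 1.40% of the probe sets at the floor. They included DPF3, ZNF618, FOXN2 and GLI3, as well as LRP5 (a Wnt co-receptor), NF1 (a Ras inhibitor), WDFY3, PPM1K, PPFIA1 and ERBB4. DPF3 measured 8.12 in the right, 6.23 in the left and 3.92 in the pool of both ventricles, and ERBB4 measured 11.45 in the right, 9.99 in the left and 8.95 in the pool of both.

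The 43 members below the left pool had a median right minus left of 0.42 in the ligated pair and reached 0.75 in 6. The other 106 had a median of 0.88 and reached 0.75 in 63. In the ligated left ventricle 9 of the 43 and 46 of the 106 were higher. Other probe sets of the same genes differed between these sets too. Member genes had 54 further probe sets at the floor, of 34 genes, and right minus left was positive at all 3 ages in 35 of them, 64.8%, against 15.4% of all probe sets at the floor. For genes with a member below the left pool it was 18 of 36, and for the other genes it was 17 of 18. Probe sets that reached 0.75 at all 3 ages were members already, unless the banding limit left them out. Of the 54, 0 reached it, so these shares are lowered by the choice of members. PPFIA1 had 3 further probe sets with right minus left between -0.62 and -0.08 at E6, and WDFY3 had 1 that was negative at all 3 ages. At PPFIA1 and WDFY3 the right excess was thus measured by 1 probe set, and no further probe set was higher on the right at all 3 ages. The part of cell composition, dissection or probe placement in this was not tested.

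The other named genes were 8 genes with 1 probe set each. ZPLD1 measured 8.35, 7.34 and 8.35 in the right ventricle at E6, E8 and E10, and 4.38, 4.78 and 5.11 in the left, with 7.08 in the right and 4.80 in the left ligated pool. It kept its right excess after ligation, at 2.27. CCDC3, a secreted protein, had 2.38, 7.87 and 7.76 at E4, E5 and E6 in both ventricles and kept 1.63. TMEM132C and ELAPOR2 were 1.55 and 1.30 higher in the ligated left ventricle.

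Among the 35 unnamed members 12 were higher in the ligated left and 6 in the ligated right ventricle, and 2 were lower in the right. Gga.4308.1.S1_at had the steepest fall of all members (-0.93 per day, SE 0.131, adjusted p = 0.0209, limma) and the largest right minus left in the ligated pair, 2.97. It measured 10.06 in the ligated right ventricle against 8.73 in the normal one at E8, and 7.09 in the ligated left ventricle against 6.40 in the normal one. GgaAffx.23339.2.S1_s_at had the largest right increase after ligation, 2.05, and GgaAffx.24584.1.S1_at a right decrease of -1.72.

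Markers of other cell types were read beside these results. None of the 20 ventricle patterning probe sets at the floor was at least 0.75 higher on the right at all 3 ages. Heart muscle markers had 22 probe sets at the floor. TNNT2, a troponin, lay between 14.98 and 15.13 in the single-ventricle pools, while the 9 probe sets of TTN, the sarcomere protein titin, spanned 3.65 to 14.86, and 5 of them were higher in the ligated right and 3 in the ligated left ventricle by the 2-fold rule. The other 13 moved by at most 0.51 on the right and 0.54 on the left after ligation, in either direction. Many of them lay near the top of the scale, such as MYH15 at 15.97 in the right and 16.03 in the left normal E8 pool. Whether the scale limits differences there was not tested. MYH7, a myosin, had a right minus left of 1.16 in the normal E8 pair and 0.18 in the ligated pair. Its changes were -0.51 on the right and 0.48 on the left. No other of the 13 reached a right minus left of 0.75 in the normal E8 pair. The mean level of 6 macrophage and leukocyte probe sets was 9.02 on the right and 8.42 on the left at E6, 9.12 and 8.31 at E8, 8.76 and 8.64 at E10, and 9.06 and 8.72 after ligation. The mean of 17 cushion and valve mesenchyme probe sets was 11.18 on the right and 10.83 on the left at E6, 11.59 and 11.22 at E8, 11.15 and 11.06 at E10, and 11.76 and 11.61 after ligation. The mean of 5 smooth muscle and outflow tract probe sets was 9.75 and 9.58, 9.31 and 8.98, 9.23 and 8.87, and 9.81 and 9.68 in the same pairs. The mean of 4 epicardium probe sets was 11.34 on the right and 11.17 on the left at E6, 11.35 and 11.04 at E8, 11.38 and 11.06 at E10, and 11.19 and 11.02 after ligation. Those 4 means were higher on the right in each pair, and their part in the members' differences was not tested. The means of all other lists were higher on the right in some pairs and lower in others. Endothelium and endocardium had 9.58 on the right and 9.62 on the left at E10. Heart muscle had 11.08 and 11.33 at E8, and red cells 14.92 and 15.17 at E6. Both VCAN probe sets of the cushion list were lower on the right in each pair. The leukocyte list had 2 genes at the floor. Its CSF1R probe sets at the floor were higher on the right in each pair. Its CD74 probe sets were all lower on the right at E10 and had a right minus left of -0.17, 0.12 and -0.04 at E8. In the epicardium list the ALDH1A2 probe sets at the floor were higher on the right in each pair. TCF21 had a right minus left of -0.01 at E8 and -0.14 in the ligated pair, and TBX18 had -0.03 at E6. Within the smooth muscle list both MYOCD (myocardin) probe sets were lower on the right in each pair, and the list's median right minus left was -0.07 at E6. Duplicate arrays of 1 pool differed over the members by an SD of 0.127 to 0.256, and 32 members had an SD over 0.5 in some pool, FGF13 at Gga.410.1.S1_at the largest with 1.22.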

How the data were processed

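Pooled ventricle RNA was hybridised to one-colour oligonucleotide arrays, 2 for each of 12 pools, and array precision is limited by their number. The table the authors deposited holds log2 values between 0.14 and 16.09 with array medians of 4.02 to 4.14; the log2 scale was read from the values. GCRMA and MAS5 are named, with no version, in the submitters' processing notes. Which of them produced the values is not given in the sources used here. Where GCRMA is used, low signals are compressed, so differences of dim probe sets depend on that floor. Values were used as deposited, without the 96 control probe sets in the fits, and levels were not compared between probe sets of different genes except in words on brightness.

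Columns were assigned by their labels. Fits used limma 3.58.1 in R 4.3.3 (two-sided, Benjamini-Hochberg over all kept probe sets) on pool means. Probe sets had to reach, in their highest pool, the median of all values, 4.09, which left 20335, all 149 members among them. The stage trend used 5 stage means. The ligation and the side by ligation terms were fitted over the 12 pools with a lone pool assumed to vary like the others. With 1 pool per condition, p-values do not measure the spread between pools or embryos. The fits were tested on simulated data. Deviations of same-numbered arrays correlated between -0.0827 and 0.0772 for 66 pairs of pools. The numbers therefore do not pair the samples.

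Symbols came from the platform annotation, updated by gene identifier to RefSeq (assembly GRCg7b): 27178 probe sets had 1 symbol, 177 several and 11180 none, and 97 of the 98 member genes were found. The members, marker lists and role groups were chosen with earlier results of these data known. Named first were the members with the extreme values of each comparison, those at the rule's edges, 20 more in order of their smallest right minus left difference and any on a marker list; all others were chosen after their values were seen. Alternatives were single arrays, quantile normalization, median centring, other thresholds and filters, leaving out a stage, and an array number block.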

Additional observations from a re-analysis of the deposited data

How the results depend on the processing

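No median over the members changed sign under the alternatives listed, except the median stage slope, which was 0.03 per day without E10, against -0.08. Of 102 values of single named members, 14 changed sign under some alternative, none of them past the 2-fold rule. The rule took 319 probe sets at a minimum of 0.5 and 68 at 1. With 1 array of each pool, the median ligated right minus left lay between 0.659 and 0.797 with 0 to 1 members lower on the right, the ligation medians between -0.0997 and -0.0746 in the right ventricle and between 0.705 and 0.755 in the left, members lower in the ligated right ventricle between 8 and 13, and members lower at E6 than E5 between 0 and 2. Quantile normalization and median centring moved the right median to -0.0546 and -0.0985 and that E6 count to 2 each. With members at least 1 higher on the right at each age, the ligated right minus left had a median of 1.01 with 42 at 0.75 or more, and the ligation medians were 1.06 on the left and -0.00223 on the right. Alternatives chosen after seeing the data were members chosen on E6 and E10 only (ligated right minus left 0.453, ligation medians 0.576 on the left and -0.0390 on the right, 20 higher on the right), members whose E6 pool of both was not below the left (0.877, 0.859 and -0.0502), and 1 probe set per named gene. The last has fewer probe sets by construction: 30 higher on the right in the ligated pair, 42 at 0.75 or more, 35 higher in the ligated left, 3 higher and 3 lower in the ligated right, and 8 rising and 23 falling by stage. The stage trend called 6 up and 19 down without E6, 5 and 8 without E8, 0 and 0 without E10, and 4 and 12 with no filter; fewer stages leave fewer residual degrees of freedom, and other causes were not tested. A replicate block by array number leaves each pool mean as it was, so no fit or median could change under it. The stage trend therefore called 14 up and 43 down again. The 2-fold counts, which also use the single arrays, did not change either. The number of arrays limits the precision, and members near the floor of the scale are measured least well.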

Other observations

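Some member genes lie close together in the genome. Of 97 member genes with a place in the RefSeq table of GRCg7b, 9 pairs had at most 2 coding genes between them, among them HMGCLL1 and BMP5, PPM1K and WDFY3, and AKR1B10 and CALD1 with 0 between them. No expected number was computed. HMGCLL1 and BMP5 both fell with stage at every member probe set, and HMGCLL1 had a right minus left of 1.39 and 1.55 in the ligated pair beside 1.73 and 2.23 for BMP5. CRHBP and F2RL1, with 1 coding gene between them, had 1.5 and 1.56.

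Right excess after ligation varied with the normal excess only loosely. Across the 149 members, which share pools and in part genes, the mean normal right minus left and the ligated right minus left had a Pearson r of 0.40 and a Spearman rho of 0.33, given as a description. Of the 14 genes with several member probe sets, 13 had a left change after ligation above 0 at every probe set, CD36 being the exception, and 5 passed the 2-fold rule at every one. Of the probe sets at the floor, 51.3% had a left change above 0, and the members' low normal left level entered the rule.

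Some genes outside the members had a right excess that appeared after E6. BMP10, a ligand of trabecular heart muscle, measured 13.05 on the right and 13.27 on the left at E6, 12.46 and 11.67 at E8, and 11.21 and 8.97 at E10. After ligation it had 13.34 on the right and 12.83 on the left. MYH11, a smooth muscle myosin, measured 9.50 on the right and 9.94 on the left at E6, 6.76 and 4.78 at E8, and 7.17 and 4.87 at E10, and 8.63 and 6.77 after ligation. Both were higher in each ligated ventricle than in the normal one of the same side, by 0.88 at BMP10 and 1.87 at MYH11 in the right; these differences have no test.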
